A study of Mus musculus with 6 samples.

Results

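The genes of the mouse major histocompatibility complex (MHC), which carries the name H2, were followed from MC38 to MC38r colorectal cancer cells. Members were all array probes whose target name begins with H2-, together with the probes of B2m, Cd74, Ciita and Nlrc5. By name these were 75 probes. Nlrc5 stands on the array under AI451557 and a further Ciita probe under C2TA, older names that RefSeq gives for them, and with those probes the set held 77 of the 45281 probes, for 44 gene names.

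MHC class I molecules are a polymorphic heavy chain joined to beta-2-microglobulin, the product of B2m, and show peptides from the cell's interior to CD8 T cells. Besides the classical heavy chains H2-K and H2-D, the mouse has many less polymorphic heavy chains in the Q, T and M parts of the region, some of which are read by natural killer cells or by specialised T cells. Class II molecules show peptides taken up from outside to CD4 T cells and belong mainly to professional antigen-presenting cells. Nlrc5 drives transcription of class I genes and Ciita that of class II genes, both through a shared promoter module that includes the X2 and Y boxes. Class I heavy-chain genes are close relatives of each other and vary strongly between mouse strains, so a probe can read several of them or miss a variant. Which transcripts each probe reads was not tested.

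MC38 is a mouse colorectal cancer line described as sensitive to EPA (eicosapentaenoic acid, a polyunsaturated fatty acid of fish oil). MC38r was kept in EPA continuously, and its IC50 rose 6-fold. For this comparison of basal expression both grew in RPMI with 10% foetal calf serum to 70% confluence, per the labels, and each was measured on 3 arrays. There was 1 line of each kind, and whether MC38r is a clone or a pool, and whether EPA was in its medium at harvest, is not given in the sources used here. A lasting difference between the lines and a response to EPA in the medium cannot be told apart. The arrays of a line carry replicate numbers but nothing says they came from separate cultures, so p-values measure only the spread between these samples, which may be technical. The MC38 arrays lay on sections A to C of the chip and the MC38r arrays on sections D to F, so the effect of the section and that of the line cannot be told apart. The share of all probes above background was 28.35% to 30.14% per MC38 array and 28.97% to 30.52% per MC38r array. In bulk RNA, fewer cells of a type and less RNA per cell cannot be told apart. Of 10 colon epithelium markers, 7 were above background on no array, Epcam, Cdh1, Krt18, Krt19 and Vil1 among them, and 1 passed the filter, Cdx2, with at least 1.4-fold more signal in MC38r. Cdx2 passed through MC38r alone and so had to differ.

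The promoters of the class I genes that the results turn on are shown because most of them carry the elements through which these genes are known to be controlled. RefSeq's table for GRCm38.p6 held 30 of 43 member genes by current symbol, and the 250 bases before the annotated start (the first one where a gene has several) were searched on both strands. The windows are H2-K1 (chr17:34000348-34000597, minus strand), H2-D1 (chr17:35262844-35263093, plus strand), H2-Q6 (chr17:35424600-35424849, plus strand), H2-Q7 (chr17:35438905-35439154, plus strand), H2-M3 (chr17:37269984-37270233, plus strand), H2-T23 (chr17:36032702-36032951, minus strand) and B2m (chr2:122147437-122147686, plus strand). They are written 5′ to 3′ on the gene's strand, and capitals mark any match to GGGATTCCC, TTTCACTTC, GAAANNGAA, TTCNNNGAA, TGACG or CCAAT in either orientation.
H2-K1: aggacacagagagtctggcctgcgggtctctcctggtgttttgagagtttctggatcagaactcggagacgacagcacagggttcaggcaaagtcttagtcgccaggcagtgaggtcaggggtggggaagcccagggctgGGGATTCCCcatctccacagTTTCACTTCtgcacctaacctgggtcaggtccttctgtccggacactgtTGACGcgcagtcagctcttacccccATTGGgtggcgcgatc
H2-D1: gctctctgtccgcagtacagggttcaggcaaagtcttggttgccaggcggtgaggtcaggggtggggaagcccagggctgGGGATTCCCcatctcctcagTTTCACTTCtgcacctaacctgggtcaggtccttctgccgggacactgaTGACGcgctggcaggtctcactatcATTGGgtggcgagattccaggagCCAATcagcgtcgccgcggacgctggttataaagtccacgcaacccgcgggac
H2-Q6: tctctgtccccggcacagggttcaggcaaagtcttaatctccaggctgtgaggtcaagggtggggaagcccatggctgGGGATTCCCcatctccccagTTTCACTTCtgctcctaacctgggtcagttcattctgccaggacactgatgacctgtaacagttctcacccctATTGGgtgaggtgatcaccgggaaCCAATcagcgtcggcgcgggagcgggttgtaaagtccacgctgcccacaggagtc
H2-Q7: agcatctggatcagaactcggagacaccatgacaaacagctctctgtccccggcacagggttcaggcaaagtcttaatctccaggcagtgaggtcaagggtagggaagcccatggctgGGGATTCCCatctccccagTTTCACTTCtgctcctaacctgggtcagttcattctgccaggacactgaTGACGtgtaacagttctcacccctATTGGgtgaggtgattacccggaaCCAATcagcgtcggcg
H2-M3: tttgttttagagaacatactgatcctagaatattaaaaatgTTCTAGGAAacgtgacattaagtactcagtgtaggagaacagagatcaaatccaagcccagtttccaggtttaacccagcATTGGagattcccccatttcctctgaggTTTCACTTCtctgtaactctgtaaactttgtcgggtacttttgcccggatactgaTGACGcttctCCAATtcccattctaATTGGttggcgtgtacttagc
H2-T23: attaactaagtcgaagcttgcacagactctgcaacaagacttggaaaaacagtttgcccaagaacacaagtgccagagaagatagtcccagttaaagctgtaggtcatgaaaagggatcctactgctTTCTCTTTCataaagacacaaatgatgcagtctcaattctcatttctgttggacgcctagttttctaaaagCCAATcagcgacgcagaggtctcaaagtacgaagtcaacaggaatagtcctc
B2m: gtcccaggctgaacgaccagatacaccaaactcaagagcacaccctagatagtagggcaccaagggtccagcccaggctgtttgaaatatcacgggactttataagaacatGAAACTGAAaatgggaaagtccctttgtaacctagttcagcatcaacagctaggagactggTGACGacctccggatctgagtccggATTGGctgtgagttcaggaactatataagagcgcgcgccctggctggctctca
The NF-kappa B core GGGATTCCC was found in 4 of the 30 member promoters, against 0.311% of all 27025 promoters of the same length. It starts 110 bases before the start of H2-K1, 170 before H2-D1, 172 before H2-Q6 and 132 before H2-Q7. The letters TTTCACTTC, known from the interferon response element of class I genes and searched after the sequences had been seen, lie 20 bases further on in H2-K1, H2-D1 and H2-Q6, and also stand in H2-Q7, H2-M3 and H2-Q10. That is 6 of 30 promoters, against 0.429% of all. The related core GAAANNGAA was found in H2-T23, H2-T22 and B2m (3 of 30 against 7.16% of all), and TTCNNNGAA, the gamma-activated site, in H2-M3, H2-DMb2 and H2-M11 (3 of 30 against 7.18%). The Y box CCAAT was held by 27 of 30 promoters, against 34.5% of all, the X2 core TGACG by 12 of 30, against 17.9%, and its longer form TGACGT by 7 of 30, against 6.56%; every match to the longer form includes the shorter one. These genes arose from common ancestors, so their matches are not separate observations, and a match is a description of letters.

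Class I heavy-chain genes supplied 14 of the 16 member probes higher in MC38r, all 3 lower ones and 19 of the 25 tested. H2-Q5 and H2-T10, which RefSeq lists as transcribed pseudogenes, are counted among these genes. Of the 77 member probes, 25 passed the filter, which asked for signal above background on at least 3 of the 6 arrays, and they stand for 15 genes. Among the 25, 16 were higher in MC38r and 3 lower (limma, adjusted p under 0.05), and 6 did not pass the threshold. Over all 13990 probes tested, 28.1% were higher and 27.0% lower. Probes of 1 gene are not separate observations, and H2-D1, H2-Q5 and H2-T23 each supplied 3 of the higher ones. By the brightest probe of each gene, 10 of the 15 genes were higher and 1 lower, beside 28.7% and 28.3% of all genes. The median fitted log2 change was 1.38 for the member probes, 1.32 with probes at background in 1 line set to their bound, and 0.04 for all probes. A probe that entered through signal in 1 line alone had to differ, which bears on 8 of the 25. The other 17 were above background on some array of each line, and 9 of them were higher, 2 lower and 6 not past the threshold. Their median log2 change was 0.71, beside 0.04 for the 12714 probes of the whole array read in both lines, of which 26.2% were higher and 24.5% lower. By arrays alone, 16 member probes were higher and 4 lower without overlap between the lines, beside 31.8% and 29.7% of all probes tested.

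Presence calls were counted over all member probes. Of all 77 member probes, 7 were detected on every MC38r array but not on any MC38 array, as were 1.36% of all probes, and 1 showed the reverse, as did 1.46% of all probes. With a detection p under 0.05 in place of 0.01 these counts were 4 and 2, and the shares over all probes at 0.05 are not reported here. At 0.01, the 7 belong to H2-D1, H2-Q5 (2 probes), H2-Q6, H2-T23, H2-DMa and Nlrc5, and the 1 to H2-T10. A further 45 member probes were above background on no array and 7 on 1 or 2 arrays. Of all 45281 probes, 28821 were above background on no array and 2470 on 1 or 2 arrays. For 26 of the 44 gene names no probe was above background on any array.

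**Figure D1:**
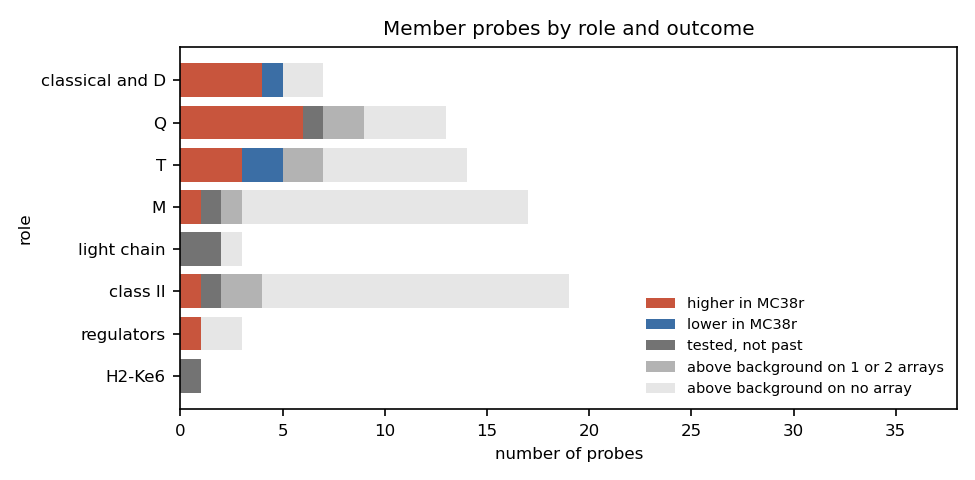
Number of member probes (horizontal axis) in each role (vertical axis), split by outcome. Class I heavy-chain groups hold 14 of the 16 probes higher in MC38r and 19 of the 25 past the filter. Of 19 class II probes 15 were above background on no array, beside 28821 of all 45281 probes.

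The classical heavy chains H2-D1 and H2-K1 were read by 5 probes that passed the filter, of which 4 were higher in MC38r and 1 lower. Over all probes tested, 28.1% were higher and 27.0% lower. H2-D1 probe 4390451 gave background-subtracted intensities of -2.3, 2.9 and -3.5 on the MC38 arrays and of 3028.2, 2291 and 2463.6 on the MC38r arrays. It was thus not well above background in MC38 and bright on every MC38r array. On the normalized log2 scale it went from 4.50 ± 0.08 to 11.34 ± 0.21 (SD, n = 3 arrays per line throughout), at least 66.5-fold higher (limma, adjusted p = 3.1e-09). Such a lower bound is taken against each array's own detection limit, the dimmest of its detected probes (log2 signals of 5.19 to 5.36). The adjusted p beside a bound is that of the fitted change. Every member probe given with a bound passed the filter through 1 line alone and so had to differ. Both other H2-D1 probes showed signal in MC38 and smaller changes. Probe 6450682 read 1090.8, 1507.9 and 1071.3 in MC38 and 3592.7, 2963.3 and 2883.1 in MC38r, 2.57-fold higher (log2 change 1.36 ± 0.17 SE, adjusted p = 0.00013). Probe 6760390 read 2296.2, 2813.8 and 2669.1 against 8327.1, 7256.2 and 6991.5, 2.89-fold higher (log2 change 1.53 ± 0.14 SE, adjusted p = 1.7e-05). The lines did not overlap on any of the 3 probes.

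H2-K1 was the gene whose probes went opposite ways. Probe 6280026 read 9.9, 22.2 and 15.6 in MC38, above background on 1 of the 3 arrays, and 1024.5, 782 and 865.8 in MC38r. Its fitted log2 signal went from 5.02 ± 0.23 to 9.82 ± 0.19, a fitted change of 4.80 (adjusted p = 2.8e-08), whose size rests on signals at background on 2 of the 3 MC38 arrays. Probe 3780736 read 80, 56.9 and 84.1 in MC38 and 16.6, 23.4 and 27.6 in MC38r, where 2 of 3 arrays were above background. It fell by 1.21 on the log2 scale (6.47 ± 0.25 to 5.26 ± 0.20, adjusted p = 0.00027). The opposite calls held under every alternative that kept these probes, with fitted log2 changes of 3.81 to 5.88 for the first probe and -1.72 to -0.76 for the second. RefSeq lists H2-Bl and H2-D4 as transcribed pseudogenes, and their probes were above background on no array.

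**Figure D2:**
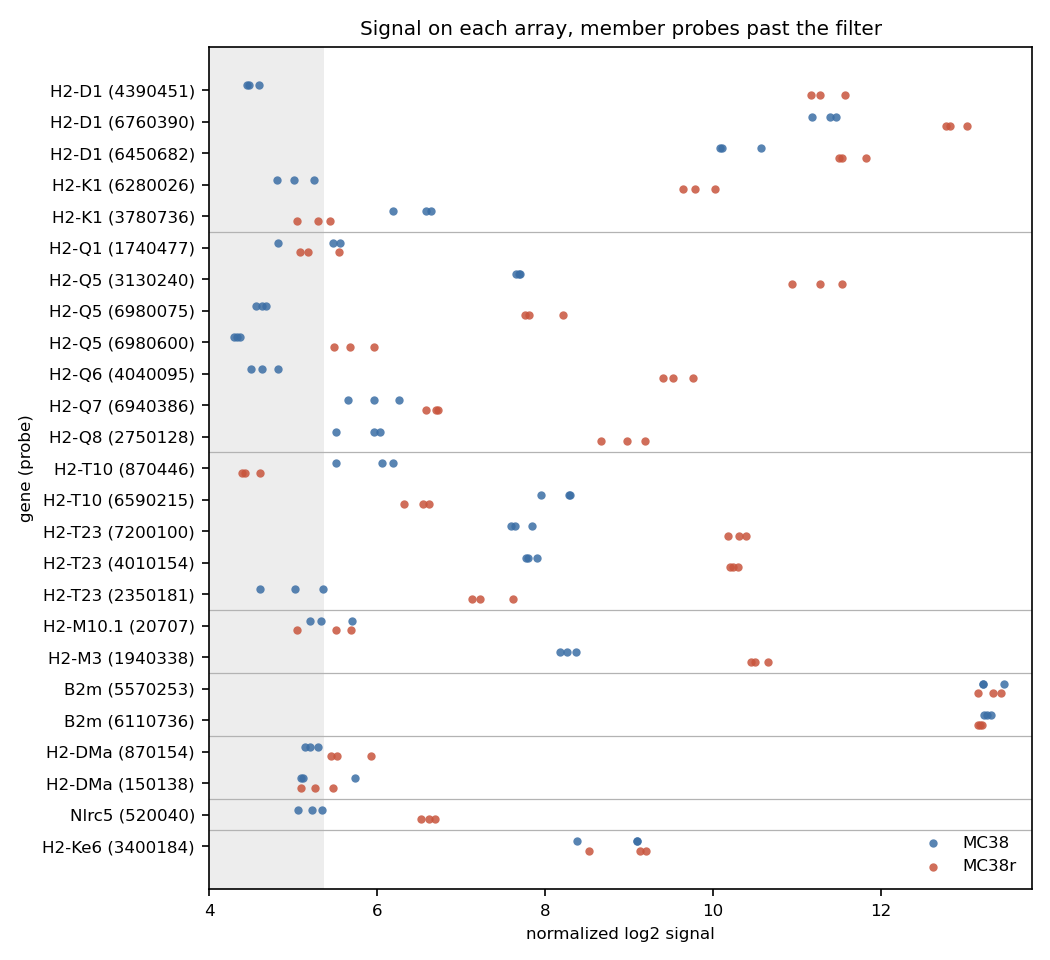
Normalized log2 signal (horizontal axis) on each array for the 25 member probes past the filter, with MC38 in blue and MC38r in red and lines between roles. The grey band ends at 5.36, the highest of the arrays' lowest signals called above background. The H2-D1 probe 4390451 sits in the band in MC38 and near 11.34 in MC38r, and the 2 B2m probes sit near 13.3 in both lines.

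Among the Q genes, H2-Q6, H2-Q7 and H2-Q8 encode the non-classical Qa-2 antigen, and RefSeq lists H2-Q5 as a transcribed pseudogene in C57BL/6J. Of 13 Q probes 7 passed the filter, and 6 of these were higher in MC38r, beside 28.1% of all probes tested. Of the 6, 3 passed the filter through MC38r alone and so had to differ, and 3 were probes of H2-Q5. H2-Q6 read 4.1, -1.5 and 10.5 in MC38 and 850, 663.6 and 719.9 in MC38r. It was above background in MC38r alone, at least 19.4-fold higher (4.64 ± 0.17 to 9.56 ± 0.18, limma adjusted p = 1.5e-08). H2-Q8 probe 2750128 was above background in both lines, with 49.5, 46.5 and 29.7 in MC38 and 486.3, 568.9 and 391.5 in MC38r. That is 8.66-fold (log2 change 3.11 ± 0.19 SE, adjusted p = 1.1e-06). H2-Q7 probe 6940386 changed least of these, from 61.1, 46.7 and 34.4 to 88.4, 80 and 89.7, or 1.64-fold (adjusted p = 0.0058).

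The 3 probes of H2-Q5 all rose. Probe 3130240 read 192, 191 and 185.8 in MC38 and 2963.3, 1954.4 and 2458.8 in MC38r, 11.9-fold higher (limma, adjusted p = 1.8e-07). Probe 6980075 read 4.2, 5.9 and 1.4 against 200.6, 207.9 and 282, at least 6.24-fold higher (adjusted p = 1.9e-07). Probe 6980600 read -8.8, -14.9 and -11.8 against 29.1, 46.6 and 35.2, at least 1.34-fold higher (adjusted p = 5.3e-05). The MC38 line was thus above background on the first of these probes and on neither of the others, whose lower bounds do not exclude the fold of the first. H2-Q1 probe 1740477, with log2 signals of 5.28 ± 0.41 in MC38 and 5.27 ± 0.24 in MC38r, did not pass the threshold (adjusted p = 0.96). H2-Q2 and H2-Q10, a heavy chain secreted by the liver, were above background on no array.

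The T genes moved in both directions. H2-T23 encodes Qa-1, the ligand of the inhibitory receptor CD94/NKG2A on natural killer cells, and all 3 of its probes were higher in MC38r. Probe 4010154 read 223.4, 203.2 and 206 in MC38 and 1196.1, 1160.6 and 1240.9 in MC38r, 5.37-fold higher (log2 change 2.42 ± 0.12 SE, limma adjusted p = 3.1e-07). Probe 7200100 read 177.1, 184 and 213.2 against 1144, 1329 and 1251.4, 6.08-fold higher (2.60 ± 0.13 SE, adjusted p = 3.6e-07). Probe 2350181 read 25.1, 3.2 and 15.9, not well above background, against 124.7, 133.6 and 181.1, at least 4.11-fold higher (adjusted p = 1.6e-05). The lines did not overlap on any of the 3 probes.

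H2-T10, whose product belongs with that of H2-T22 to the ligands of some gamma delta T cells and which RefSeq lists as a transcribed pseudogene in C57BL/6J, fell. Probe 6590215 read 296.8, 231 and 297.5 in MC38 and 64.2, 77.4 and 82.5 in MC38r, 3.21-fold lower (log2 8.18 ± 0.20 to 6.49 ± 0.15, limma adjusted p = 1.6e-05). Probe 870446 read 50.7, 29.6 and 57.4 against 3.4, -5.2 and -7, at least 1.6-fold lower (adjusted p = 0.00017). The lines did not overlap on either probe. The remaining H2-T10 probe, 4900722, was above background on 1 MC38 array. H2-T18 and H2-T3, known for the thymus leukaemia antigen, H2-T22 and H2-T24 had no probe past the filter, and 1 probe of H2-T3 was above background on 1 MC38r array.

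Of the 17 M probes 2 passed. H2-M3, which presents N-formylated peptides of bacteria and mitochondria, read 273.9, 291.1 and 313.2 in MC38 and 1429.1, 1385.1 and 1597.5 in MC38r. It was 4.82-fold higher without overlap (8.27 ± 0.09 to 10.54 ± 0.11, limma adjusted p = 7.2e-07). H2-M10.1 probe 20707, of a group of M genes known from the vomeronasal organ, read 24.4, 20.9 and 36.1 in MC38 and 29.8, 16.7 and 35.9 in MC38r, with overlapping arrays (log2 change 0.01 ± 0.20 SE, adjusted p = 0.98). H2-M1, H2-M2, H2-M9, H2-M10.2, H2-M10.3, H2-M10.4, H2-M10.5, H2-M10.6 and H2-M11 were above background on no array.

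B2m, the light chain of class I molecules, did not pass the threshold on any probe. Probe 5570253 read 9485.5, 11276.6 and 9521.8 in MC38 and 9119.6, 11049.6 and 10288.5 in MC38r (log2 13.30 ± 0.14 and 13.31 ± 0.14, change 0.01 ± 0.14 SE, limma adjusted p = 0.96). Probe 6110736 read 9857.4, 9563.5 and 10174.3 in MC38 and 9450.6, 9119.6 and 9256.8 in MC38r. On the second probe every MC38r array was below every MC38 array, by a log2 change of -0.09 ± 0.12 (SE, adjusted p = 0.56). Probe 2650220 was above background on no array.

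Class II genes were mostly not detected in either line. Over all 45281 probes of the array, 28821 were above background on no array. Of 19 class II probes, with Cd74, the invariant chain, counted among them, 15 were above background on no array. These included every probe of H2-Aa, H2-Ab1, H2-Ea, H2-Eb1 and H2-Eb2, the chains of the peptide-presenting molecules A and E, of H2-DMb2, a chain of the peptide editor DM, and of H2-Oa and H2-Ob, whose product restrains DM. Of the 3 Cd74 probes, 1 was above background on 1 MC38r array, and the H2-DMb1 probe was on 1 MC38 array. Both Ciita probes were above background on no array. H2-DMa, the other chain of DM, was read near background. Its probe 870154 read 23.4, 19 and 20.7 in MC38 and 45, 30 and 27.8 in MC38r, at least 1.27-fold higher (limma, adjusted p = 0.045). That call was lost in 13 of 16 alternatives, with adjusted p up to 0.15. Probe 150138 read 18.4, 37.3 and 18 against 22.5, 28.6 and 18 (log2 change -0.04 ± 0.20 SE, adjusted p = 0.89). Of 17 immune cell markers on the array none passed the filter (0 of 17) and 15 were above background on no array, Ptprc, Itgax and Cd3e among them. Flt3 was above background on 1 MC38 array and Zbtb46 on 2 MC38r arrays. The summed signal of these markers was 426 to 441 on the MC38 arrays and 452 to 458 on the MC38r arrays, and its part in the results was not tested. That sum comes mostly from probes at background and includes the offset of 16 given to each probe.

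Nlrc5, the class I transactivator, was higher in MC38r. Its probe read 24.8, 16.8 and 21.3 in MC38, not well above background, and 87.4, 82.5 and 76.3 in MC38r. The log2 signal went from 5.20 ± 0.15 to 6.61 ± 0.08, at least 2.5-fold (limma, adjusted p = 2.2e-05). The Nlrc5 probe passed the filter through MC38r alone and so had to differ. H2-Ke6 lies in the region but encodes a dehydrogenase of steroids and of mitochondrial fatty acid synthesis, not an MHC chain. It read 532.8, 317.3 and 529.5 in MC38 and 350.8, 545.1 and 572.4 in MC38r and did not pass the threshold (log2 change 0.09 ± 0.24 SE, adjusted p = 0.77).

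Of the 44 gene names 21 had several probes, and 7 of these had at least 2 past the filter. For H2-D1, H2-Q5, H2-T10 and H2-T23 the probes gave the same call. For H2-D1 the sizes differed as well, since the lower bound of 66.5-fold of 1 probe lies above the 2.57-fold and 2.89-fold of the others. For H2-T23 the probes measured in both lines gave 5.37-fold and 6.08-fold, and for H2-Q5 and H2-T10 only 1 probe each was measured in both lines. H2-K1 gave opposite calls. For H2-DMa 1 probe passed the threshold and the other did not, and for B2m the probes differed in sign by 0.10, neither past the threshold. In H2-Q1, H2-Q7, H2-Q8 and H2-M10.1 only 1 probe passed the filter, and in the other 10 genes none did. Of the dimmer probes, both remaining H2-Q7 probes and the remaining H2-Q8 probe were above background on no MC38 array, while 1 of each gene was above background on 2 MC38r arrays. For H2-D1 the size, and for H2-K1 the direction, differed with the probe that was read.

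**Figure D3:**
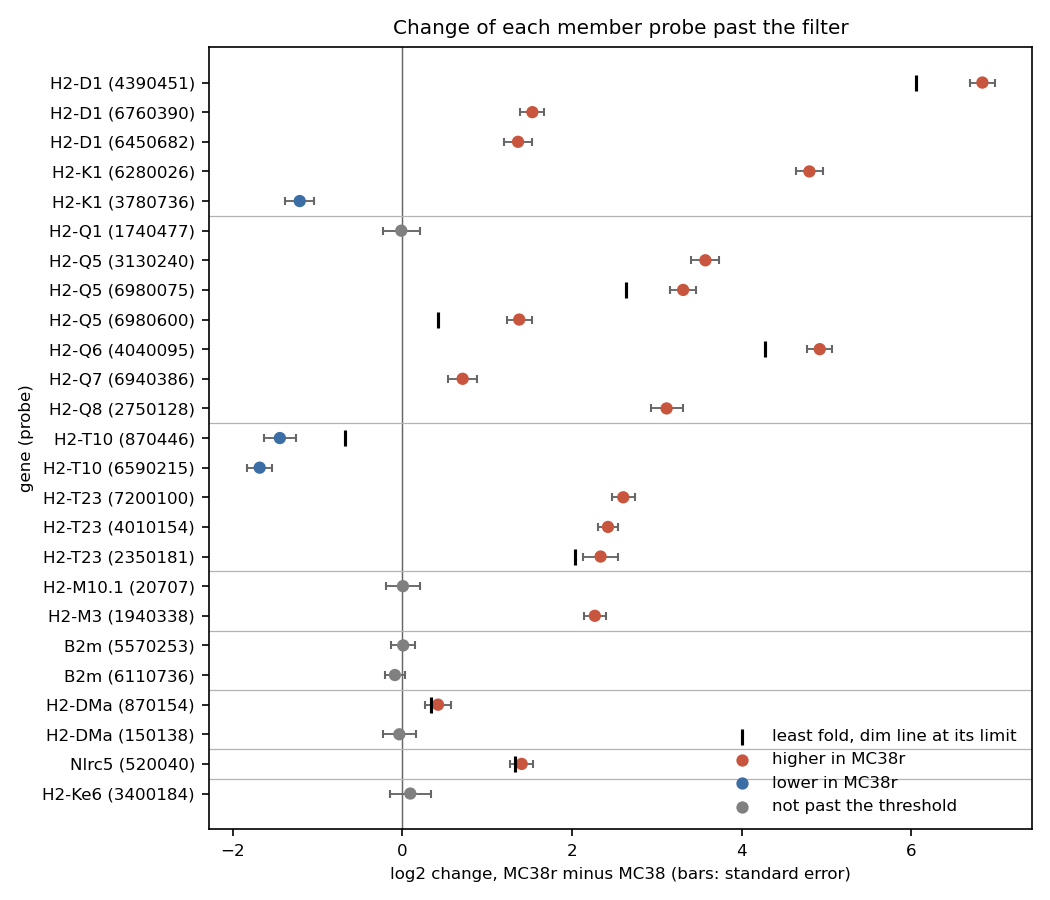
Log2 change of MC38r minus MC38 (horizontal axis) with its standard error for each member probe past the filter. Black ticks give the smallest change that holds where 1 line was not above background. The 2 H2-K1 probes lie at fitted changes of 4.80 and -1.21, on opposite sides of 0, and the 3 H2-T23 probes all lie above 0.

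Genes that supply and load class I peptides changed in part. Of 13 listed genes 11 were measured, and 5 were higher, 1 lower and 5 not past the threshold, where 28.7% of the 8433 genes read by their brightest probe were higher and 28.3% lower. Their median log2 change was 0.24. Tap1 passed the filter through MC38r alone and Psmb9 through MC38 alone, so both had to differ. Tap1 and Tap2 form the transporter that carries peptides into the endoplasmic reticulum. Tap1 was above background in MC38r alone, at least 2.23-fold higher (4.71 ± 0.08 to 6.44 ± 0.10, limma adjusted p = 3.9e-06), and Tap2 was 2.31-fold higher (7.57 ± 0.81 to 8.78 ± 0.49, adjusted p = 0.022). Of the 3 immunoproteasome subunits, 1 fell, 1 rose and 1 did not pass the threshold. Psmb9 was at least 2.14-fold lower (6.34 ± 0.14 to 5.06 ± 0.16, adjusted p = 6.5e-05), and Psmb8, chosen after its values were seen, was 2.27-fold higher (10.27 ± 0.15 to 11.45 ± 0.03, adjusted p = 5.9e-05). Psmb10, also chosen after its values were seen, had a log2 change of -0.07 ± 0.20 (SE, adjusted p = 0.8). Pdia3, a chaperone of the loading complex, and Psme1, a proteasome activator, did not pass, with log2 changes of -0.33 ± 0.14 and 0.24 ± 0.13 (SE).

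Of 23 listed regulators of MHC transcription 17 were measured, with 9 higher, 1 lower and 7 not past the threshold and a median log2 change of 0.43. Over all genes read by their brightest probe, 28.7% were higher and 28.3% lower, with a median of 0.02. Irf9 and Stat2, which act in the response to type I interferon, were both higher. Irf9 was 8.61-fold higher (6.20 ± 0.08 to 9.30 ± 0.16, limma adjusted p = 1.2e-07). Stat2 was not well above background in MC38 and at least 3.29-fold higher in MC38r (adjusted p = 2.8e-06). Stat2 and Creb1, both among the 9, passed the filter through MC38r alone and so had to differ. The 1 lower gene was Nfkb1, named after its values were seen, which was 1.49-fold lower (adjusted p = 0.014). With the mean of a gene's probes in place of the brightest, 0 regulators were lower. The interferon gamma receptor chains did not pass: Ifngr1 changed by -0.45 ± 0.20 and Ifngr2 by 0.34 ± 0.21 (log2, SE).

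Of 5 genes of class II peptide supply found on the array 4 were measured, 1 higher and 3 lower, with a median log2 change of -0.65. Of all genes read by their brightest probe, 28.7% were higher and 28.3% lower. Ctsl, a lysosomal protease, was 7.41-fold higher (limma, adjusted p = 1.3e-06). Ctsh, another lysosomal protease, was at least 7.74-fold lower (adjusted p = 4.6e-08), and Ifi30, a lysosomal thiol reductase, was 1.87-fold lower (adjusted p = 0.0022). Ctsh passed the filter through MC38 alone and so had to differ. Outside the region, 3 of 7 class I-like genes were measured, with a median of 1.35. Fcgrt, the neonatal Fc receptor, was 6.15-fold higher (adjusted p = 2.1e-05) and Hfe, a regulator of iron uptake, 2.54-fold higher (adjusted p = 4.3e-05). Cd1d1, which presents lipids to natural killer T cells, was 2.21-fold lower (adjusted p = 0.00075).

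**Figure D4:**
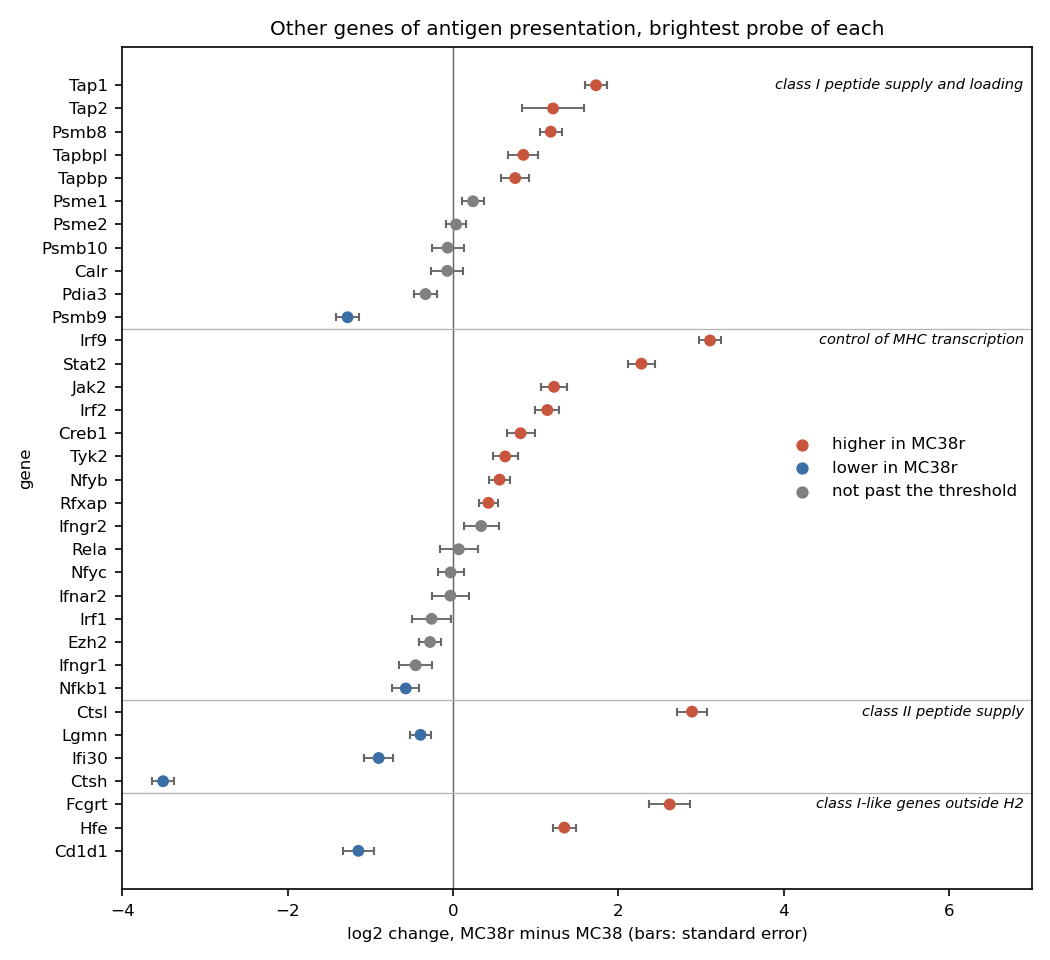
Log2 change of MC38r minus MC38 (horizontal axis) with its standard error for measured genes of the other 4 lists, each read by its brightest probe; 1 measured regulator is not shown. Irf9 lies highest in the regulators at 3.11, and Ctsh, at least 7.74-fold lower, lies lowest of all.

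The authors' deposited table, which lists genes, held 14 member genes, 10 higher and 4 lower in MC38r, and 2 of them had an adjusted p under 0.05. The shares over all 6244 genes listed there are not reported here, so these counts cannot be read against them. In the authors' deposited table the ratio of MC38r over MC38 was 20.7 for H2-Q6, 6.32 for H2-K1, 5.17 for H2-T23, 3.37 for H2-D1 and 0.376 for H2-T10. The 2 genes under 0.05 in the authors' deposited table were H2-T23 (adjusted p = 0.0261) and Nlrc5 under its older name (ratio 2.13, adjusted p = 0.0278). H2-K1 and H2-D1 are there as 1 value each, between those of their separate probes.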

How the data were processed

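RNA of each line was hybridised to Illumina MouseWG-6 v2.0 bead arrays. The probe signals are linear intensity values that the authors quantile-normalized in GenomeStudio 1.9.0, per the file headers. Between 35% and 35.1% of the signals of each array were below 0, so the deposited intensity values already had background subtracted. Detection was deposited as a score that equals 1 minus the detection p-value. The deposited gene signals of the series value table are also intensity. The authors' deposited comparison lists 6244 genes with a ratio (MC38r divided by MC38), the same on the log2 scale, and p-values, and its test is not given in the sources used here.

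Signals were corrected with nec of limma 3.58.1 in R 4.3.3 (offset 16), log2-transformed and quantile-normalized. The test design had assumed raw signals, and this probe table was the least processed one with detection values. A probe was kept if its detection p was under 0.01 on 3 or more of the 6 arrays, which held for 13990 of 45281. The lines were compared with limma (lmFit, eBayes, no covariate), with Benjamini-Hochberg adjustment over all probes kept and a threshold of 0.05. The fit was tested on simulated data. For arrays, their number limits the precision, and the median standard error of a log2 change was 0.16 for the member probes.

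Of 30854 array names, 21907 matched a RefSeq symbol (GRCm38.p6), 5684 of them by an older symbol. Other genes were read by their brightest kept probe. Every member probe past the filter is given with values. Of each other list, up to 3 genes past the threshold and 2 not past it are named by size of change, and some genes that this rule names are not reported here. The members and lists were chosen with earlier results of these data known. Alternatives covered background correction, normalization, offset, filter, an unmoderated test, array weights, the variance model, a replicate block, the series value table, the mean over a gene's probes and the omission of arrays.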

Additional observations from a re-analysis of the deposited data

How the results depend on the processing

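Over 17 alternatives, 19 of the 25 member probes kept their direction and their side of the threshold wherever they were kept. The H2-DMa probe 870154 lost its call in 13, among them the replicate block (adjusted p = 0.064). The deviations of same-numbered arrays correlated at -0.465, -0.437 and 0.303. Deviations within a line depend on each other, so these values cannot settle whether the numbers pair the arrays. With the replicate block 15 member probes were higher and 3 lower, over all probes 3518 and 3369, and no other member call changed. Leaving out single arrays, 15 to 16 member probes were higher and 3 lower, beside 3426 to 4168 and 3293 to 3898 of all probes.

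The 5 probes that changed sign did not pass the threshold in any of these alternatives. Without 1 array, log2 changes ran from -0.06 to 0.09 for B2m probe 5570253 (-0.055 to 0.091), from -0.14 to 0.17 for H2-DMa probe 150138 (-0.143 to 0.172), from -0.15 to 0.31 for H2-Ke6 (-0.145 to 0.309), from -0.13 to 0.19 for H2-M10.1 (-0.131 to 0.19) and from -0.25 to 0.13 for H2-Q1 (-0.247 to 0.126). With signals floored in place of the background correction, H2-M10.1 came to -0.014 and H2-Q1 to 0.088. With cyclic loess H2-M10.1 came to -0.045, and with array weights H2-DMa probe 150138 to 0.091. Without both MC38 replicate 2 and MC38r replicate 1, chosen after seeing the data because they deviate together (0.617), H2-DMa probe 150138 came to 0.179 and H2-M10.1 to -0.143.

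The filter set the counts by construction. With no filter, 15 member probes were higher and 5 lower (16 and 3 with it), and the genes whose probes differ numbered 11 in place of 3. Over all probes 3824 were then higher and 3738 lower (3937 and 3776 with it). Kept only if above background on all 6 arrays, 8 member probes were higher and 1 lower, and 1 gene had differing probes. Over all probes kept in that way, 2937 were higher and 2759 lower. The numbers of probes kept in that way are not reported here, so these counts cannot be read as shares. With a detection p under 0.05, 4 member probes were above background in MC38r alone (7 at 0.01) and 2 in MC38 alone (1 at 0.01). The shares over all probes at 0.05 are not reported here. With the mean of a gene's probes, 0 regulators of MHC transcription were lower (1 otherwise). The cause was not tested. In the gene signals of the series value table, 9 member genes were higher and 1 lower, against 10 and 1 by brightest probe. The shares over all 10203 genes fitted there are not reported here. Probes at background in 1 line give only a bound on the fold.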

Other observations

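Other array names that RefSeq gives as older names of H2 genes lie outside the member rule and were looked at after the member values had been seen. 0610037M15RIK, an older name of H2-Q6, read 30.7, 24.1 and 25.4 in MC38 and 885.8, 856.2 and 685 in MC38r, 19.3-fold higher (limma, adjusted p = 2.9e-08). EG630499 is an older name of H2-K2, a transcribed pseudogene beside H2-K1. Its probe 10167 read 1693.8, 1873.3 and 1531.8 in MC38 and 6136.9, 5597.5 and 5709.3 in MC38r, 3.41-fold higher (adjusted p = 4.4e-06). Its other probe, 4640348, read 65.2, 84.3 and 89.8 in MC38 and 49.7, 49.7 and 65.7 in MC38r, a fall by 0.43 on the log2 scale (adjusted p = 0.041). H2-K2 thus gave opposite calls from its probes, as H2-K1 did. For H2-K2, however, the intensities of the lower probe overlapped between the lines (65.2 in MC38, 65.7 in MC38r). Alternatives are not given for the H2-K2 probes. The probes under older names of H2-Eb2 and H2-M5 were above background on no array.

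Of 134 protein-coding genes that RefSeq places between H2-K1 and H2-M2 and that are no members, 54 were measured. By brightest probe 20 were higher (37.04%), 10 lower (18.52%) and 24 not past the threshold, beside 28.7% and 28.3% of all genes, and the set includes Tap1, Tap2, Psmb8 and Psmb9. Tap1, Lst1, Cdsn and Zfp57 passed the filter through MC38r alone and Psmb9 through MC38 alone, so these had to differ. The median log2 change of the measured genes was 0.18, and 0.02 over all genes. The 2 with a rise over 2 on the log2 scale were Cdsn, which encodes corneodesmosin of the skin barrier (4.69 ± 0.12 to 10.49 ± 0.12, at least 36.8-fold, limma adjusted p = 4.2e-09), and Gm8909, which carries older names of the H2 series (7.48 ± 0.24 to 10.57 ± 0.08, adjusted p = 2.6e-07). Abhd16a, a lipase, fell by 3.92 on the log2 scale (9.08 ± 0.08 to 5.17 ± 0.24, above background on 2 MC38r arrays, adjusted p = 6e-08).

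In the authors' deposited table the member genes with a ratio under 1 other than H2-T10 were H2-DMb1 (0.71), H2-DMb2 (0.643) and H2-M1 (0.709), each with an adjusted p over 0.1. None of the probes of these 3 genes passed the filter used here.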
